A study of Mus musculus with 6 samples.

Results

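This account concerns 5629 stretches of open chromatin on the mouse autosomes that were called as ATAC-seq peaks in both wild-type (WT) and both Alkbh5 del-cIDR libraries and in neither Alkbh5 knockout (KO) library. They were chosen by joining peaks from the 6 lists into regions wherever they shared 1 bp or more, and keeping the regions on chromosomes 1 to 19 with that calling pattern. They make up 5629 of the 253594 merged autosomal regions. Of the 113466 regions called in both WT and both del-cIDR libraries, 4.96% were called in neither KO library. Because the calls chose the regions, this count is a description and carries no test.

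The cells were E14TG2a mouse embryonic stem cells, grown with 15% serum, 1000 U/ml LIF, 1 µM of the MEK inhibitor PD0325901 and 3 µM of the GSK3 inhibitor CHIR99021. All 3 genotypes shared this medium and the 10 µl of spike-in nuclei added before transposition. KO cells are labelled as an Alkbh5 knockout, del-cIDR cells as Alkbh5 lacking the stretch named cIDR, where IDR abbreviates an intrinsically disordered region, and WT cells as wild type. Each genotype has 2 libraries. Whether the replicates are separate cultures, and whether each mutant is a single clone, is not given in the sources used here. The deleted gene could not be checked in the KO libraries, because no gene annotation of the files' genome build (GRCm39) was used here.

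ALKBH5 is an RNA demethylase that removes the methyl group of N6-methyladenosine, a mark on messenger and other RNAs. ATAC-seq uses a transposase that inserts adapters where DNA is not wrapped in nucleosomes, so a peak marks a stretch that is open in some share of the cells, typically a promoter, an enhancer or another site bound by transcription factors. A disordered region of a protein has no fixed fold, and such regions can steer where a protein binds or gathers.

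The lists held 161122 and 147415 autosomal peaks in KO, 154058 and 151352 in del-cIDR and 189594 and 180903 in WT. Summit heights are given in tags, the count stacked at the top of a peak, solved from the deposited values. Whether a tag stands for a whole fragment or for a read is not given in the sources used here. The background of the whole genome was 1.26 and 1.01 tags in KO, 1.14 in both del-cIDR libraries and 1.09 and 1.18 in WT. KO replicate 2 thus had the lowest background, a sign of the fewest tags. Over the 96989 regions called in all 6 libraries, heights differed between the replicates of a genotype by less than counting noise, with a chi-square per degree of freedom of 0.746 in KO, 0.730 in del-cIDR and 0.743 in WT. The same measure was 2.29 between KO and WT replicate 1 and 1.08 between del-cIDR and WT replicate 1. The replicate spread given below may therefore be technical.

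The regions lost in KO and kept in del-cIDR were low and narrow. Their median height was 14 tags in both del-cIDR libraries and 14 and 16 in WT, and 95% of them stood at or below 33 tags in both del-cIDR libraries and 33 and 37 in WT. Regions called in all 6 libraries had medians of 31 tags in both del-cIDR libraries and 33 and 36 in WT. Taking the lowest of the 4 heights of each region, the median was 11 tags for the regions lost in KO and 27 for those called in all 6. Heights are given as a description, since a low peak is missed more easily and the missing calls chose the regions.

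**Figure D1:**
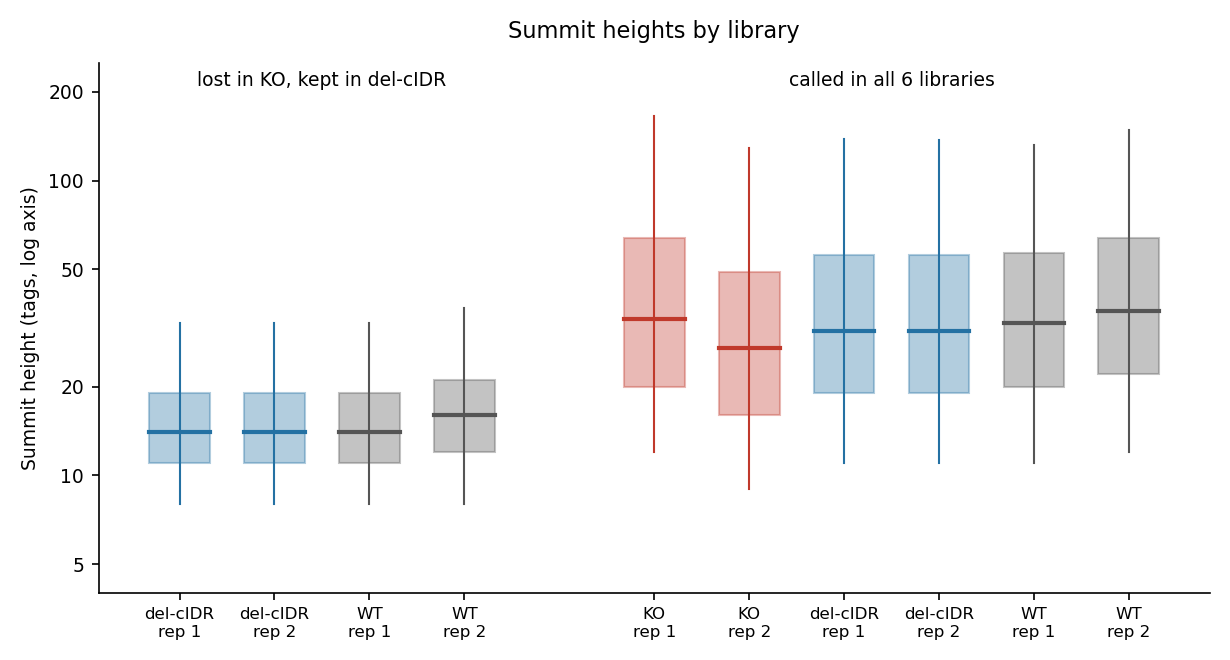
Summit height in tags (log axis) by library, for the regions lost in KO and kept in del-cIDR (left) and for the regions called in all 6 libraries (right). Boxes span the quartiles, thick lines are medians and thin lines run from the 5th to the 95th percentile; the regions lost in KO have medians of 14 to 16 tags and no value in KO.

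The heights in del-cIDR and WT were close at these regions. Relative to the median of the regions called in all 6 libraries of the same list, the height in del-cIDR minus that in WT had a median of 0.06 log2 over the regions lost in KO and 0.05 log2 over the regions called in all 6. The calls in both genotypes are part of the rule, so no test was made.

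The share of regions missing from both KO libraries fell steeply with height. Of the regions whose lowest height in del-cIDR and WT was under 10 tags, 18.3% were lost in KO. The share was 10.1% at 10 to 14 tags, 5.09% at 15 to 19 and 2.02% at 20 to 39. At 40 tags and more it was 0.231%, or 75 of 32491 regions. The lowest classes, with 1931 and 2140 regions, made up 34.3% and 38.0% of all those lost in KO. These shares describe the choice of regions, since height decides how easily a call is missed.

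The reverse pattern, regions called in both KO and both WT libraries and in neither del-cIDR library, had a smaller share in each class of height. It comprised 2892 regions, 2.68% of the 107726 called in both KO and both WT libraries. By the lowest height in KO and WT its shares were 12.3% under 10 tags, 4.11% at 10 to 14, 1.66% at 15 to 19, 0.564% at 20 to 39 and 0.0412% at 40 and more. The regions lost in KO and the reverse pattern share the WT libraries, and the depths of the lists differ, so the shares are set side by side without a test.

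**Figure D2:**
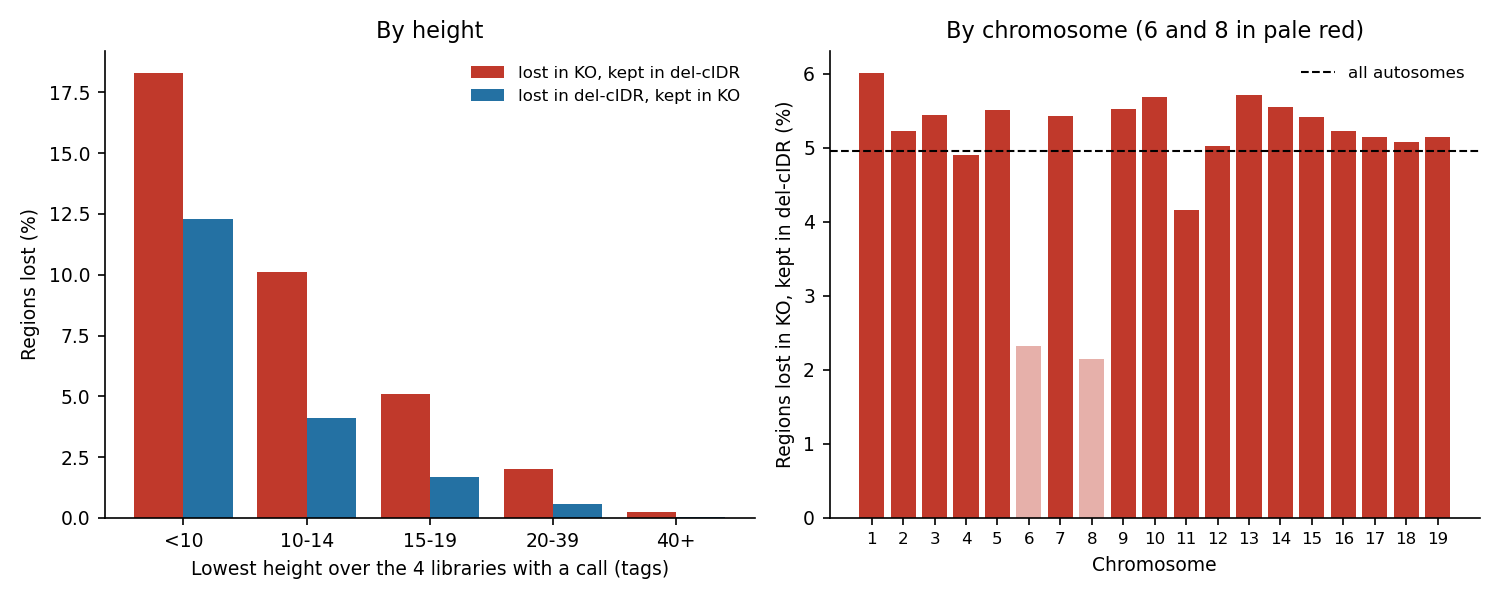
Left, percentage of regions lost in KO and kept in del-cIDR (of those called in del-cIDR and WT) and lost in del-cIDR and kept in KO (of those called in KO and WT), by the lowest height over the 4 libraries with a call. Right, percentage lost in KO and kept in del-cIDR by chromosome, where chromosomes 6 and 8 stand at 2.32% and 2.15% against 4.96% for all autosomes (dashed line).

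How far above the reach of the KO libraries these regions stood was estimated from the calling limit, the lowest whole height that would have passed at the local background. At the background of the whole genome this limit was 6 tags in KO replicate 1 and 5 in KO replicate 2. The height to be expected in KO without a change was taken from the del-cIDR and WT libraries and put on the scale of each KO library. In regions called in all 6, observed KO heights were 0.08 and 0.04 log2 above it in the median. The local background in KO was not observed where there is no KO peak and was scaled from the other libraries.

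For the lower of the KO values, the expected height was 1.86 times the limit in the median over the regions lost in KO, with quartiles of 1.58 and 2.27, against 3.58 times over the regions called in all 6. A total of 2263 of the lost regions (40.2%) had an expected height of at least 2 times the limit, and 57 of at least 4 times. For the reverse pattern, set against the del-cIDR limits, the median was 1.71 and 726 regions (25.1%) reached 2 times the limit. Of all regions called in del-cIDR and WT with an expected height under 1.5 times the limit, 24% were called in neither KO library and 47.1% in both. The reverse pattern had a share of 24.3% under 1.5 times the del-cIDR limit, 10.2% at 1.5 to 2 times, against 14.5% for the loss in KO, and 2.29% at 2 to 3 times. Of the regions called in del-cIDR and WT at 2 to 3 times the KO limit, 6.20% were called in neither KO library and 79.3% in both. From 4 times the KO limit upward these shares were 0.138% and 99.1%. Most of the regions lost in KO thus stood at less than 2 times the limit, and few lay far above it.

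The 100 lost regions with the weakest call in del-cIDR or WT had a lowest height of 5 to 15 tags. Among regions called in a single KO library, the 100 with the weakest KO call had a KO height of 5 to 14 tags. The first range concerns calls in del-cIDR or WT and the second calls in KO. Both sets hold the weakest calls, which lie near the lowest heights of the lists, so no conclusion is drawn from their overlap. In all, 7517 regions were called in KO replicate 1 alone of the KO libraries and 3331 in KO replicate 2 alone, beside 5629 in neither and 96989 in both. With KO replicate 1 left out the number lost was 13187, and with KO replicate 2 left out it was 8989. It was 8502 without del-cIDR replicate 1 and 8773 without del-cIDR replicate 2. Leaving out a KO library requires fewer missing calls, and leaving out a del-cIDR library requires fewer calls.

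The lost regions were narrower than regions of the same class of height called in all 6. Their median peak width, taken in the del-cIDR and WT libraries alone, was 211 bp against 406 bp for regions called in all 6. The lost regions had the lower median in each class of height. Under 10 tags the medians were 212 bp for the regions lost in KO and 268 bp for those called in all 6, and at 10 to 14 tags they were 216 and 306 bp. At 20 to 39 tags they were 205 and 387 bp, with quartiles of 164 to 278 bp for the lost regions and 288 to 536 bp for the others. At 40 tags and more they were 233 and 594 bp. That class has no upper bound, and its median lowest heights were 46 tags for the lost regions and 66 for the others. Width rose with height in the regions called in all 6, while the medians of the lost regions lay between 202 and 233 bp in every class. Within a class the sets also differed in other ways. At 20 to 39 tags the median local background was 4.86 tags for the lost regions and 2.04 for the others. The median lowest heights in that class were 24 and 27 tags. Under 10 tags the median background was 1.14 tags in both sets. The part of background and height in the widths was not tested. Calls and widths come from the same signal, so no test was made.

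Regions called in a single KO library were also narrow, with 220 bp at 20 to 39 tags and 206 bp at 40 and more. The regions lost in del-cIDR and kept in KO had a median width in KO and WT of 177 bp at 20 to 39 tags, against 397 bp for regions called in all 6 by the same measure. Narrow peaks were thus also seen in the other sets that miss calls. Peaks have a lowest width in each list, which was 121 and 130 bp in KO, 123 and 125 bp in del-cIDR and 114 and 113 bp in WT. In 1068 of the lost regions (19%) at least 1 of the 4 peaks was narrower than 130 bp, and in 6 all of them were. With such regions left out of both sets, the medians at 20 to 39 tags were 217 bp for the lost regions and 390 bp for those called in all 6.

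**Figure D3:**
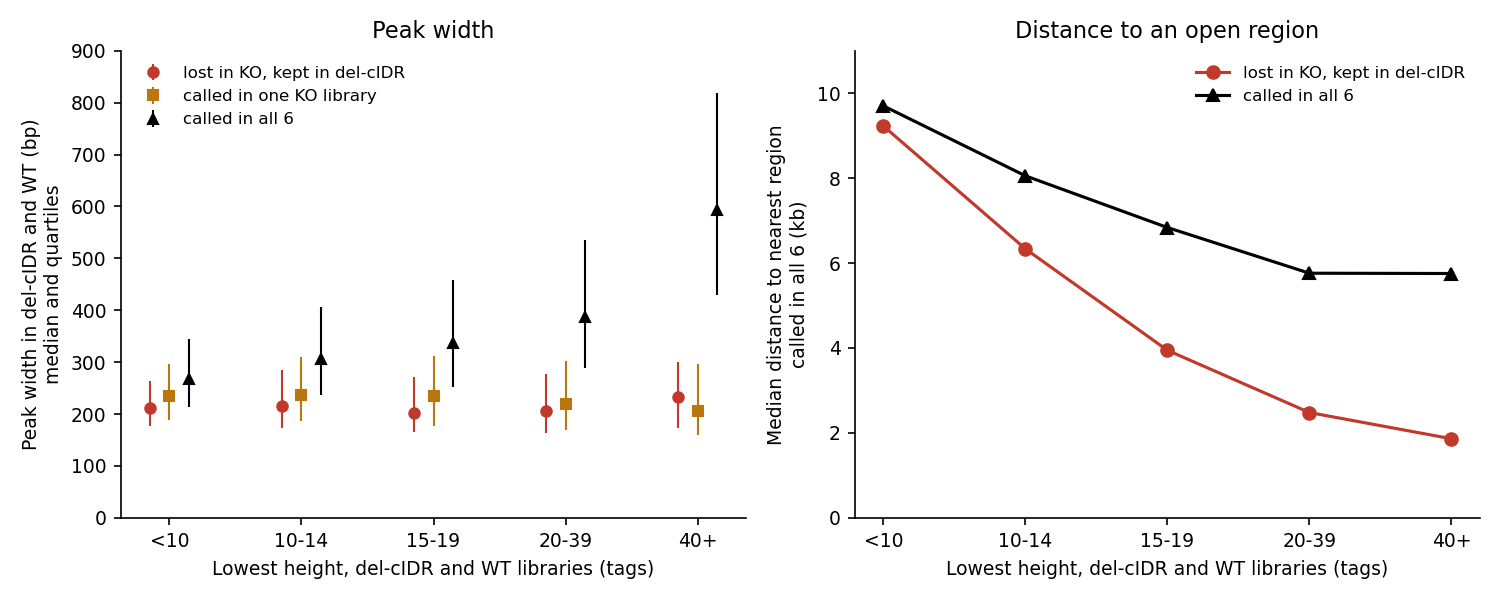
Left, median peak width in the del-cIDR and WT libraries with quartiles (bars), by the lowest height, for regions lost in KO and kept in del-cIDR, regions called in a single KO library and regions called in all 6. Right, median distance to the nearest other region called in all 6; at 40 tags and more it was 1863 bp for the lost regions and 5754 bp for regions called in all 6.

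The taller of the lost regions stood close to other open regions. Over all lost regions the median distance, centre to centre, to the nearest region called in all 6 was 6043 bp, against 6387 bp from each region called in all 6 to the next. Under 10 tags the distances were 9226 bp for the lost regions and 9701 bp for those called in all 6. At 20 to 39 tags they were 2480 and 5761 bp, and at 40 tags and more 1863 and 5754 bp. Of the 75 lost regions of 40 tags and more, 20% had a region called in all 6 within 1 kb. The share was 5.12% for those called in all 6 in that class, which were taller in the median (66 against 46 tags). Wide regions push centres apart, and the part of width in this difference was not tested. The local background at lost regions of 40 tags and more was 10.8 tags in the median, against 4.46 for regions called in all 6 in that class. Many tall lost regions were thus summits on ground that was already raised. The calling limit rises with the local background, so a tall region is missed more easily where that background is high. The missing calls chose the regions, and the part of this choice in the backgrounds and distances was not tested.

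By the rule no lost region overlaps a KO peak. The median gap from a lost region to the nearest KO peak, edge to edge, was 3113 bp. Of the lost regions, 53 (0.942%) had a KO peak less than 150 bp away and 1091 (19.4%) had one less than 1 kb away. In the reverse pattern, 41 regions (1.42%) had a del-cIDR peak less than 150 bp away and 548 (18.9%) one less than 1 kb away. Of the 15 tallest lost regions, 5 had a KO peak less than 1 kb away. The number of regions called in all 6 within 50 kb had a median of 6 for the lost regions and also of 6 for those called in all 6. The neighbourhoods of both sets were thus about equally dense.

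The 15 tallest, ranked by the lowest of their 4 heights, show this range. The tallest lies on chromosome 14 from 122151464 to 122151805 (GRCm39) and held 273 and 268 tags in del-cIDR and 297 and 306 in WT. The limit there was 13 and 12 tags in KO, 19.7 times below the expected height for the lower value, and the nearest KO peak was 12847 bp away. The heights in del-cIDR and WT did not overlap but were of like size, and the KO lists hold no peak there.

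The second, on chromosome 5 from 135501279 to 135501508, held 224 tags in each del-cIDR library and 223 and 225 in WT, against KO limits of 14 and 12. A further region of chromosome 5, from 136408303 to 136408532, had 85 and 91 tags in del-cIDR and 100 and 99 in WT, with KO limits of 8 and 7. These 3 regions were the ones among the 15 that also ranked among the 15 farthest above the KO limit. Their local backgrounds were 4.56 to 4.72 tags on chromosome 14, 4.89 to 4.96 at the taller region of chromosome 5 and 1.72 to 2.06 at the other, against medians of 1.19 to 1.30 over all lost regions. The nearest KO peaks were 11168 and 4140 bp from those on chromosome 5.

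The other tall regions had higher local backgrounds. On chromosome 17 from 17417517 to 17417784 the heights were 80 and 86 tags in del-cIDR and 90 and 97 in WT over a local background of 10.1 to 11.8 tags, with KO limits of 24 and 20. On chromosome 10 from 41681990 to 41682265 they were 85 and 78 tags in del-cIDR and 94 and 125 in WT, with limits of 27 and 23. Both were more than 3 times the limit. On chromosome 11 from 104184052 to 104184331 the heights were 62 and 68 tags in del-cIDR and 58 and 60 in WT, but the local background of 22.9 to 25.5 tags put the KO limits at 44 and 38, so the expected height was only 1.35 times the limit.

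In 11 of the 15, the local background was at least 10 tags in all 4 libraries, and 12 of the 15 had an expected height of at least 2 times the limit. On chromosome 4 from 146000271 to 146000490 there were 77 and 83 tags in del-cIDR and 72 and 73 in WT, at 2.03 times the limit. On chromosome 13 from 23610687 to 23610840 there were 63 and 64 tags in del-cIDR and 58 and 64 in WT, and the nearest KO peak was 324 bp away. Regions of like height thus differed widely in how far they stood above the KO limit.

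**Figure D4:**
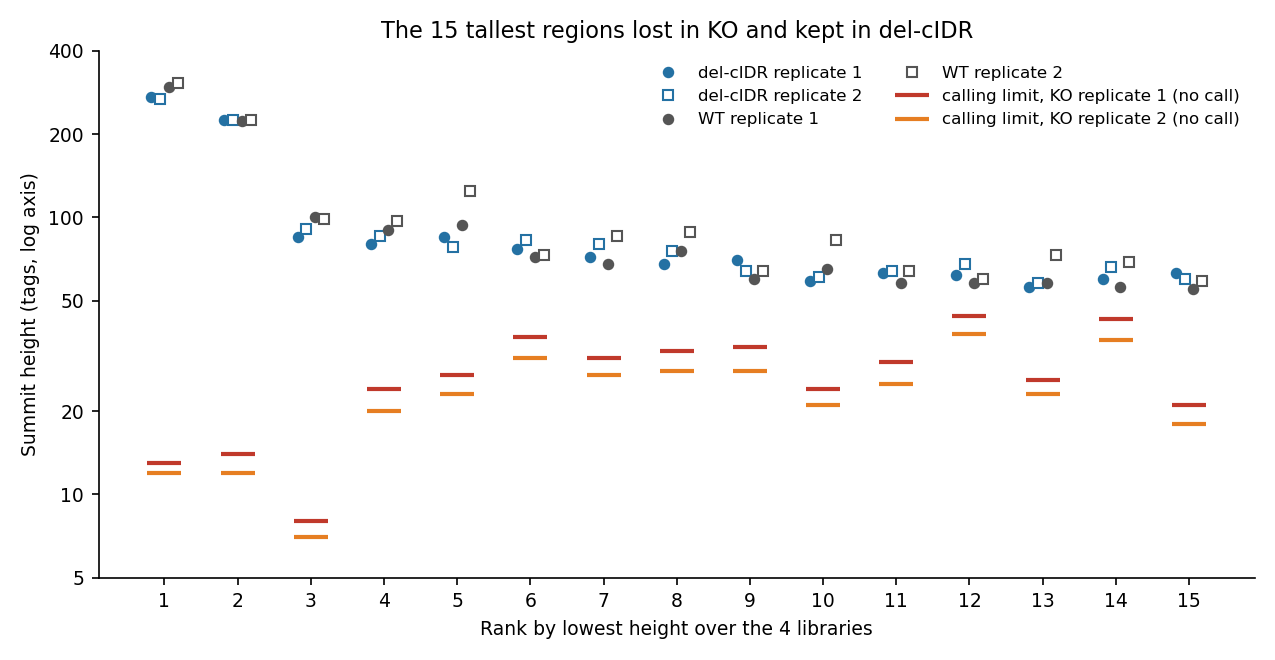
Summit heights in tags (log axis) of the 15 tallest regions lost in KO and kept in del-cIDR, ordered by their lowest height, in each del-cIDR and WT library. Horizontal marks are the calling limits estimated for each KO library, in which none of them was called; the limits are 7 to 14 tags for ranks 1 to 3 and 18 to 44 tags for the others.

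Ranked by the expected height over the limit, an order chosen after the values were seen, chromosome 12 came next. Its region from 22186389 to 22186920 held 68 and 49 tags in del-cIDR and 46 and 67 in WT over a background of 1.09 to 1.45 tags, and the one from 23345358 to 23345630 held 47 and 55 tags in del-cIDR and 53 and 54 in WT. KO limits were 5 to 6 tags at both, and the nearest KO peaks were 18601 and 18995 bp away. These are isolated summits, unlike the tall regions on raised ground.

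A region of chromosome 5 from 80704001 to 80704264 held 39 and 40 tags in del-cIDR and 38 and 42 in WT. One of chromosome 14, from 53784879 to 53785286, held 44 and 35 tags in del-cIDR and 31 and 41 in WT. Both had KO limits of 6 and 5 tags, so the expected heights were 6.56 and 6.18 times the limit.

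Along the genome the lost regions were spread widely. They fell in 1798 of the 2409 windows of 1 Mb that held a region called in del-cIDR and WT, with a median of 2 per window, and 17 windows held at least 10. The fullest window was chromosome 16 from 20 to 21 Mb, where 15 of 101 regions (14.9%) were lost, followed by chromosome 15 from 77 to 78 Mb with 13 of 98 (13.3%). Among the 10 fullest, 3 lay on proximal chromosome 12. They were 18 to 19 Mb with 10 of 40 regions lost (25%), 20 to 21 Mb with 12 of 57 (21.1%) and 21 to 22 Mb with 11 of 72 (15.3%). From 18 to 24 Mb on chromosome 12, a stretch set after seeing these windows, 46 of 250 regions (18.4%) were lost in KO, against 197 of 4584 (4.30%) on the remainder of the chromosome. The median lowest height over all regions was 23 tags in that stretch and 21 tags on the remainder. Among the 3 windows named, the same median was 18.5 tags at 18 to 19 Mb, 25 at 20 to 21 Mb and 23 at 21 to 22 Mb. The part of height in the share lost there was not tested.

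Chromosomes 6 and 8 had the smallest shares, with 149 of 6425 regions (2.32%) and 133 of 6172 (2.15%) lost in KO. Chromosome 11 had 330 of 7933 (4.16%), and the other autosomes had 4.90% to 6.01%. On chromosome 11 the segment from 11 to 56 Mb had 43 of 2025 regions lost (2.12%) and the remainder 287 of 5908 (4.86%). The bounds of that segment come from earlier results of these data. KO heights of regions called in all 6 were raised in the same places: relative to the mean of each library they averaged 0.22 log2 in both KO libraries, -0.16 in both del-cIDR libraries and -0.09 in both WT libraries on chromosome 6. On chromosome 8 they averaged 0.34 and 0.33 log2 in KO, -0.06 in both del-cIDR libraries and 0.07 and 0.06 in WT, and in the segment of chromosome 11 0.30 in both KO libraries, -0.05 in both del-cIDR libraries and -0.07 and -0.08 in WT. The part of these raised heights in the low shares was not tested. Without chromosomes 6, 8 and 11, 5.40% of 92936 regions were lost.

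The share lost was highest among the closest neighbours of a lost region. Counted from each lost region in turn, 457 neighbours called in del-cIDR and WT lay within 1 kb. Of these, 70 (15.3%) were lost in KO too. A region near several lost regions is counted from each, so these are not numbers of separate regions. The heights of those neighbours alone gave 4.63%, from the share lost in each class of height over all autosomes. Local background, on which the calling limit also depends, was not matched, and its part in these shares was not tested. Between 1 and 2.5 kb the share was 5.76%, and from 25 to 100 kb it was 5.39%, against 4.38% and 4.53% from heights. In the reverse pattern, 14 of 210 neighbours within 1 kb (6.67%) were also lost in del-cIDR, against 2.98% from heights. Pairs within 1 kb involved 67 of the lost regions (1.19%), and 468 (8.31%) had another lost region within 10 kb. In the reverse pattern 104 regions (3.60%) had another such region within 10 kb. Most lost regions thus had no other lost region within 10 kb. How many would have one from the share lost alone was not tested. The largest share of these distances was the one within 1 kb.

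The regions called in all 6 that neighbour a lost region were not used by the rule, and their heights ask whether the surroundings were lower in KO too. Neighbours that lack a call in a KO library are left out, and the part of this in the differences was not tested. There were 6615 regions called in all 6 within 10 kb of a lost region. Their median heights are given relative to all regions called in all 6 of the same list. They were 0.08 and 0.05 log2 in KO, 0.18 and 0.13 in del-cIDR and 0.08 and 0.15 in WT. The group values were 0.07 ± 0.02 in KO, 0.15 ± 0.03 in del-cIDR and 0.12 ± 0.05 in WT (SD, n = 2 each). KO differed from WT by -0.05 log2 (exact permutation test, two-sided p = 0.333) and del-cIDR from WT by 0.04 log2 (exact p = 0.667). With 2 against 2 libraries 0.333 is the smallest p possible. Adjusted over the 4 comparisons made within 10 kb and 1 kb (Benjamini-Hochberg), the exact p were 0.667 and 0.889. With means in place of medians, which do not move in steps, both KO libraries stood at 0.05 log2, both del-cIDR libraries at 0.12 and both WT libraries at 0.11. KO minus WT was then -0.06 log2, larger than the spread between replicates, with the same exact p of 0.333. Without chromosomes 6, 8 and 11 the difference of medians was -0.10 log2, with heights still relative to the regions of all autosomes. Relative to the regions that remain, the medians were 0.08 and 0.11 log2 in KO and 0.13 and 0.15 in WT. The difference of means, also relative to the regions that remain, was -0.04 log2.

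Within 1 kb the KO values lay apart from the others. The 334 regions called in all 6 at that distance had relative median heights of 0.04 and 0.00 log2 in KO, 0.18 and 0.15 in del-cIDR and 0.22 and 0.15 in WT. KO thus stood 0.17 log2 below WT (difference -0.17, exact two-sided permutation p = 0.333, adjusted 0.667, n = 2 each), both KO libraries lay below all the others, and the del-cIDR and WT values overlapped. Whole-number heights make medians move in steps, and means, chosen as an alternative after seeing the data, gave 0.05 and 0.03 log2 in KO, 0.18 and 0.19 in del-cIDR and 0.19 and 0.18 in WT. With chromosomes 6, 8 and 11 left out the means were 0.07 and 0.04 log2 in KO, 0.18 and 0.22 in del-cIDR and 0.19 in both WT libraries. From 1 to 2.5 kb outward KO means without those chromosomes were 0.06 to 0.12 log2 up to 10 kb, against 0.10 to 0.14 in del-cIDR and 0.09 to 0.14 in WT. Medians from 1 to 2.5 kb went the other way. Over all autosomes they were 0.16 and 0.15 log2 in KO, 0.13 and 0.09 in del-cIDR and 0.08 and 0.12 in WT. Without those chromosomes they were 0.17 and 0.21 log2 in KO, 0.11 and 0.13 in del-cIDR and 0.11 and 0.12 in WT. By means, the gap between KO and the other genotypes was widest within 1 kb, where the del-cIDR and WT means were highest. The design cannot take that gap past a threshold of 0.05.

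**Figure D5:**
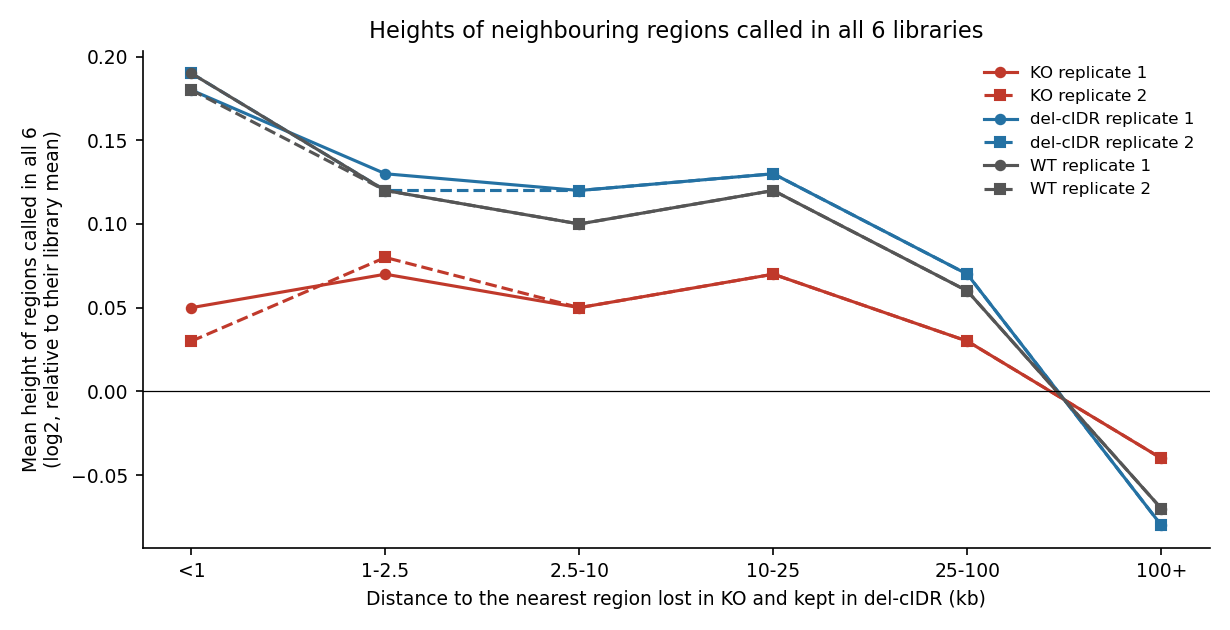
Mean summit height (log2, relative to the mean of its library) of regions called in all 6 libraries, by distance to the nearest region lost in KO and kept in del-cIDR, for each KO, del-cIDR and WT library. Within 1 kb both KO libraries stand at 0.05 and 0.03, and the del-cIDR and WT libraries at 0.18 to 0.19; at 100 kb and more all 6 lie between -0.08 and -0.04.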

How the data were processed

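The authors deposited 1 peak list per library. The tools named are BWA, fastp, MACS2, SAMtools, featureCounts and Picard, with build GRCm39, per the submitters' processing notes; for their versions, settings and any shift of reads to the cut site the entry is: not given in the sources used here. Each deposited fold was read as the ratio of the summit to its local background, with 1 tag added to each. Significance is deposited as −log10 p and −log10 q. The deposited score equals the −log10 q multiplied by 10 without its decimals for 99.94% of peaks or more in each list. These are the authors' values for each peak in its own list. From fold and −log10 p the summit height was solved, and it was whole within 0.1 tags in 100% of 1016776 peaks. Spike-in peaks (sequence dm) were dropped. Scripts ran on Python 3.11.15, numpy 2.4.6, pandas 2.3.3 and scipy 1.17.1 and were tested on simulated peaks. Total reads per library are unknown here, so no counting interval is given.

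Sample titles gave each library's genotype and replicate number. The regions, classes, lists and named regions were chosen with earlier results of these data known. Named regions were the 15 with the highest lowest height and the 10 windows of 1 Mb with the most members, ties going to the larger share. Planned work on start sites, gene lists, GC content, soft-masked bases and motifs was not run, and no sequence is shown, because no genome or annotation of GRCm39 was used here. Exact permutation tests over libraries were made for the heights of neighbours; all else is described without a test.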

Additional observations from a re-analysis of the deposited data

Results flagged for a closer look

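For the regions called in all 6 libraries within 10 kb of a lost region, both KO libraries stood below the WT mean, by -0.05 log2 on average, and both del-cIDR libraries above it, by 0.04 log2. Neither difference could reach 0.05 in its exact permutation test, since 0.333 is the smallest p possible with 2 against 2 libraries. The difference between them was not tested. Single libraries were not apart: KO replicate 1 and WT replicate 1 both had a median of 0.08 log2, and del-cIDR replicate 2 had 0.13 log2 against 0.15 in WT replicate 2. Del-cIDR minus WT was 0.00 log2 without WT replicate 1. Means instead of medians gave -0.06 log2 for KO and 0.01 log2 for del-cIDR.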

How the results depend on the processing

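Of the 11 alternatives, 7 left the number of lost regions within 1.5 times of 5629, at 4304 with lists of equal length, 5231 at −log10 q of at least 5, and 5461 and 5593 with −log10 q of at least 3 and with an overlap of at least 50%. Leaving out a library gave 6770 to 13187 (above 1.5 times for each KO and del-cIDR library). Fewer missing calls are required without a KO library, and fewer calls without a del-cIDR or WT library. The share lost was 5.36% at −log10 q of at least 5, 4.11% with lists of equal length, 5.40% without chromosomes 6, 8 and 11, and 5.78% to 11.6% with a library left out. The median lowest height was 14 tags when −log10 q had to reach 5, and with a library left out it was 11 to 12. The median merged width, 315 bp, was 322 bp at a −log10 q minimum of 3, 343 bp at a minimum of 5 and 279 to 330 bp with a library left out. The share with another lost region within 10 kb was 6.75% at −log10 q of at least 5, 6.46% with lists of equal length and 9.30% to 15.9% with a library left out. The median distance to the nearest region called in all libraries was 7579 bp at −log10 q of at least 5, 6387 bp with lists of equal length, 6330 bp without chromosomes 6, 8 and 11, and 5634 to 6073 bp with a library left out. At 20 to 39 tags the lost regions measured 190 to 236 bp and the others 376 to 388 bp over all these settings. The reverse pattern, 2892 regions, came to 1506 with lists of equal length and 1925 when −log10 q had to reach 5; with a library left out it was 4215 to 7017 (7017 and 6640 without del-cIDR replicates 1 and 2, 5502 without KO replicate 2 and 4604 without WT replicate 2).

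For neighbours, KO minus WT was -0.17 to 0.00 log2 over the settings tried, with 0.00 for neighbours of at least 20 tags. The band from 1 to 2.5 kb was not among these settings. There the medians were higher in KO (0.16 and 0.15 log2) than in WT (0.08 and 0.12). KO minus WT ranged from -0.08 to -0.02 with a library left out. Del-cIDR minus WT ranged from 0.00 to 0.07 with a library left out and changed sign to -0.02 within 1 kb. With the replicate number as a block the differences were -0.05 and 0.04 log2 (exact sign-flip p = 0.5 and 1); libraries with the same number did not deviate together (correlations of -0.0116 to 0.00587). Depth limits what a missing call means: at the background of the whole genome, heights under 6 tags in KO replicate 1 and 5 in KO replicate 2 could not be called. Planned results on start sites, gene lists, GC content, soft-masked bases and motifs were not run.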
